A study of Dugesia japonica with 18 samples.

Results

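One week after X-irradiation, whole planarians of Dugesia japonica were compared with unirradiated animals across all gene models with enough reads. The 6 libraries compared are the 3 taken at day 7 and the 3 taken at day 0, out of 18 in the series. Of 25566 gene models in the count table, 17129 passed a filter on low counts and are described here. All groups are whole bodies of the clonal strain SSP, about 5 mm long and starved for at least a week, per the labels' protocols. The day 7 animals had received X-rays at 150 Roentgens. The series' design text gives day 0 as sampled without irradiation, while the treatment protocol in the labels states the dose for every sample without naming day 0 as an exception. The samples used here hold no unirradiated animals of day 7, so the effect of X-rays cannot be told apart from that of 7 further days. The other 12 libraries, taken at days 0.5, 1, 3 and 5, entered the same fit and are used to place the day 7 values in time.

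Planarians keep a population of dividing stem cells, the neoblasts, spread through the body between the organs. Neoblasts are the source of every other cell type, and their progeny replace cells of the skin, gut, muscle and nervous system as these wear out. X-rays remove the dividing cells, and after a high dose the existing differentiated cells age without replacement. A whole-body library mixes all of these cells, so fewer cells of a type and less RNA per cell cannot be told apart in any value below. The files do not pair the gene model IDs (DjGI, a first number, a hyphen and a second number) with gene names, so the labelled tissue could not be checked against marker genes and no pathway could be counted.

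RNA was counted by Lasy-Seq, a 3' mRNA sequencing method which tags every sample with an index during reverse transcription so that all can be pooled afterwards. The day 0 libraries held 11695734, 12605652 and 7760430 counts and the day 7 libraries 5453805, 4679195 and 6114135. The groups did not overlap, and the day 7 mean was 50.7% of the day 0 mean (exact two-sided permutation test, p = 0.1, the smallest value that 3 against 3 libraries allow). Low gene models were therefore measured less precisely at day 7. At equal depth, with every library thinned to 4679195 counts, between 20409 and 20500 gene models were detected at day 0 and between 20296 and 20919 at day 7, so the groups overlapped. Control RNAs (ERCC), a fixed set of added sequences, took between 0.00373% and 0.00418% of the counts at day 0 and between 0.00394% and 0.00456% at day 7, again with overlap. These were 487, 470 and 324 counts at day 0 and 215, 190 and 279 at day 7, so a scaling by them carries counting error.

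Day 7 replicate 3 stood apart from the other day 7 libraries. The biological coefficient of variation, the spread between replicates beyond counting error, was 0.15 over the 3 day 7 libraries and 0.0959 over replicates 1 and 2 alone. It was 0.092 at day 0 and between 0.0848 and 0.115 at the other days. Replicate 3 also had the highest scaling factor, 1.13 against 0.973 and 1.00 for replicates 1 and 2, and its 20919 detected gene models were the most at equal depth. The main counts and levels below are therefore also given without it.

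The make-up of the RNA differed far more between the days than between replicates. As a measure, the share of reads that would have to move to other gene models to turn one library into another was computed for each pair. It was between 4.11% and 4.36% for the 3 pairs of day 0 libraries. For day 7 it was 4.77% between replicates 1 and 2, and 6.81% and 6.89% for the pairs with replicate 3. For the 9 pairs of a day 0 with a day 7 library it was between 17.4% and 21.1%. Every pair across the days thus lay above every pair within a day, with or without replicate 3.

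**Figure D1:**
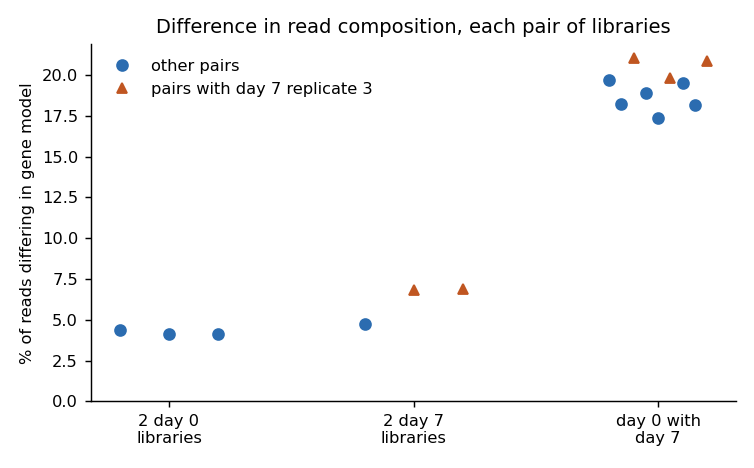
Share of reads (%, vertical axis) that would have to change gene model to turn one library of a pair into the other, for pairs of day 0 libraries, pairs of day 7 libraries and pairs across the days; each point is a pair, and triangles mark pairs with day 7 replicate 3. Pairs within a day lie between 4.11% and 6.89%, and pairs across the days between 17.4% and 21.1%.

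The main comparison asked which gene models differed a week after irradiation. Of the 17129 tested, 7125 differed (41.6%, edgeR quasi-likelihood test, Benjamini-Hochberg adjusted p below 0.05 over all gene models tested). Of these, 3968 fell (23.2% of those tested) and 3157 rose (18.4%). The test uses a spread shared by all days. The biological coefficient of variation was 0.107 over all 18 libraries and 0.15 over those of day 7, so adjusted p-values and SEs may be too small. On the 6 libraries alone, 6475 of 15845 gene models differed. Which direction held more calls depended on the scaling: 3509 fell and 4088 rose with upper-quartile scaling, and 3519 and 3809 with library totals, against 3893 and 3279 with RLE and 3406 and 2539 with ERCC scaling. Without day 7 replicate 3, 3504 fell and 2559 rose. In 3786 of the falls (22.1% of those tested) all 3 day 7 libraries lay below all 3 day 0 libraries, and in 2815 of the rises (16.4%) all 3 lay above.

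Falls were deeper than rises were high. The median log2 change was -0.95 among the gene models that fell, with an interquartile range of -1.42 to -0.65, and 0.66 among those that rose, with a range of 0.48 to 0.88. Without day 7 replicate 3 the medians were -1.01 and 0.67. Of the rises, 2596 (82.2%) were smaller than 2-fold, whereas of the falls 2098 (52.9%) were. At least 2-fold changes were 1870 falls (10.9% of those tested) and 561 rises (3.28%), or 1769 and 473 without replicate 3. The size of this excess depended on the scaling. With upper-quartile scaling the numbers were 1574 falls and 789 rises, with library totals 1602 and 748, and with RLE 1830 and 586. At least 4-fold changes were 496 falls (2.9%) and 30 rises (0.175%). The 30 became 68 without day 0 replicate 2, 50 without day 0 replicate 3 and 55 without day 7 replicate 1, while the falls stayed between 503 and 569 in the fits that leave out a library. In the 16-fold class there were 161 falls and no rise (1 rise without day 0 replicate 3), and the highest rise anywhere was 3.4 on the log2 scale. The 30 large rises in the full set of libraries were almost all of gene models with few reads: 1 of them reached a mean of 20 CPM (counts scaled to libraries of a common size) at day 7, against 152 of the 496 large falls at day 0.

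**Figure D2:**
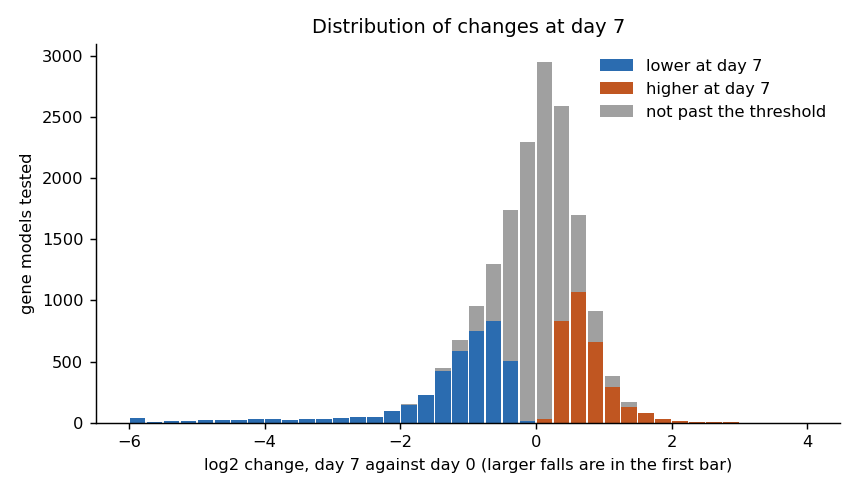
Number of tested gene models (vertical axis) by log2 change from day 0 to day 7 (horizontal axis, bins of 0.25), coloured by the result of the edgeR test; the first bar also holds all larger falls. The 3157 rises form a narrow hump with a median of 0.66, and the 3968 falls have a long tail of 496 gene models that fell at least 4-fold.

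Gene models that were not called were in large part measured well enough to bound their change. The 95% interval of the log2 change lay within 2-fold in both directions for 6819 of the 10004 not called (68.2%) and within 1.5-fold for 3367 (33.7%). This depended on the read level. With the tested gene models split into 5 classes of equal size by mean CPM over all 18 libraries, the interval lay within 2-fold for 342 of 2699 (12.7%) in the lowest class and for 1123 of 1129 (99.5%) in the highest. In the lowest class, a missing call therefore says little about the size of the change. Without day 7 replicate 3, 6769 of 11401 not called (59.4%) had an interval within 2-fold. The intervals rest on a spread shared by all days. The biological coefficient of variation was 0.107 over all 18 libraries and 0.15 over the 3 of day 7, so the intervals may be too narrow.

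The share of gene models called and the balance of falls and rises both followed the read level. In the lowest class, from 0.379 to 2.6 CPM, 21.2% differed from day 0, against 67% in the highest, from 31.7 to 56720 CPM. The 3 classes between had 29.9%, 40.1% and 49.6%, where the share over all gene models was 41.6%. Falls made up 64.8% of the calls in the lowest class and 46.9% in the highest, with 471 falls and 256 rises in the first and 1078 and 1219 in the second. The split depended on the scaling. With upper-quartile scaling, falls were 56.8%, 53.3%, 51.4%, 42.8% and 39.3% of the calls from the lowest class to the highest, against 64.8%, 64.5%, 62.2%, 53.1% and 46.9% with the scaling used throughout (TMM, a trimmed mean of the ratios between libraries). Falls were a larger share of the calls in the lowest class than in the highest under all 4 other scalings, and also without day 7 replicate 3 (74.6% and 44.1%). A gene model of the lowest class could pass the filter on low counts through the libraries of a single day where it was high. Falls and rises there are thus partly set by the filter. These fits use the same filter, so they are no test of this split.

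**Figure D3:**
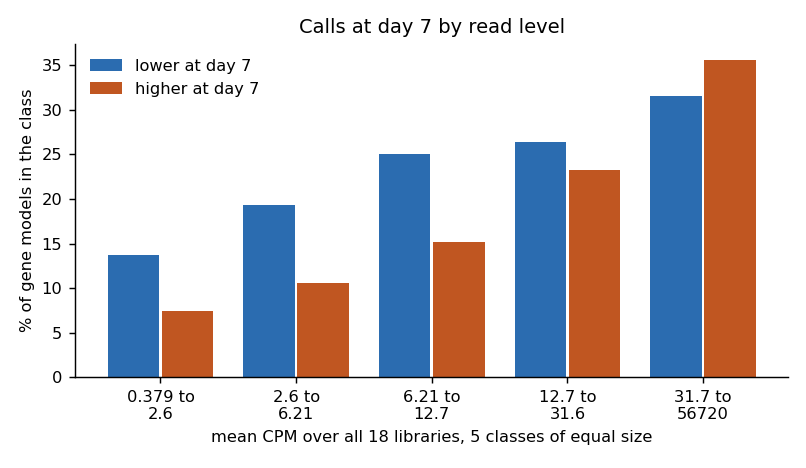
Percentage of gene models in each class (vertical axis) that were lower or higher at day 7, for 5 classes of equal size by mean CPM over all 18 libraries (horizontal axis; reads are 3' tags and not divided by length). Calls rise from 21.2% of the lowest class to 67% of the highest, and rises outnumber falls in the highest class under TMM scaling.

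Large changes were spread differently over the classes in the 2 directions. At least 2-fold falls numbered 453, 431, 345, 269 and 372 from the lowest class to the highest. At least 2-fold rises numbered 229, 129, 68, 60 and 75. In the highest class 34.5% of the falls and 6.15% of the rises were at least 2-fold. In the lowest class nearly all calls were that large in both directions (96.2% of falls, 89.5% of rises). The median standard error there was 0.47 on the log2 scale against 0.11 in the highest class, so smaller changes could seldom pass. The limit that the filter sets on this class, given above, holds here too.

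The gene models that fell had supplied much of the RNA of an unirradiated animal. They held 44.9%, 43.7% and 44.5% of the reads in the day 0 libraries and 26.5%, 27.8% and 25.2% in the day 7 libraries. Those that rose held 25.2%, 26.1% and 25.6% at day 0 and 42.2%, 41% and 42.8% at day 7. Since these sets were chosen on the same libraries, the values describe how much RNA the calls cover and are no test. Before and after, the 10004 gene models not called held 29.9% ± 0.18 and 31.3% ± 0.42 (SD over 3 libraries). The means at day 7 without replicate 3 were 27.1% for the falls and 41.6% for the rises.

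The libraries of days 0.5 to 5 lay between the ends. They were not part of the contrast that chose the sets, but they entered the same fit and filter and so had a part in the calls. On the 6 libraries alone, 3735 of 15845 gene models fell and 2740 rose. The 3968 gene models that were lower at day 7 held, in the order of days 0.5, 1, 3 and 5, 39.9% ± 0.19, 36.8% ± 0.49, 31.9% ± 0.21 and 29.3% ± 0.82 of the reads (SD over 3 libraries). Those higher at day 7 held 29% ± 0.04, 32.1% ± 0.55, 36% ± 0.44 and 38.6% ± 0.49 in the same order. At each of these days the libraries of a set overlapped with none of the libraries of the day before or after it.

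**Figure D4:**
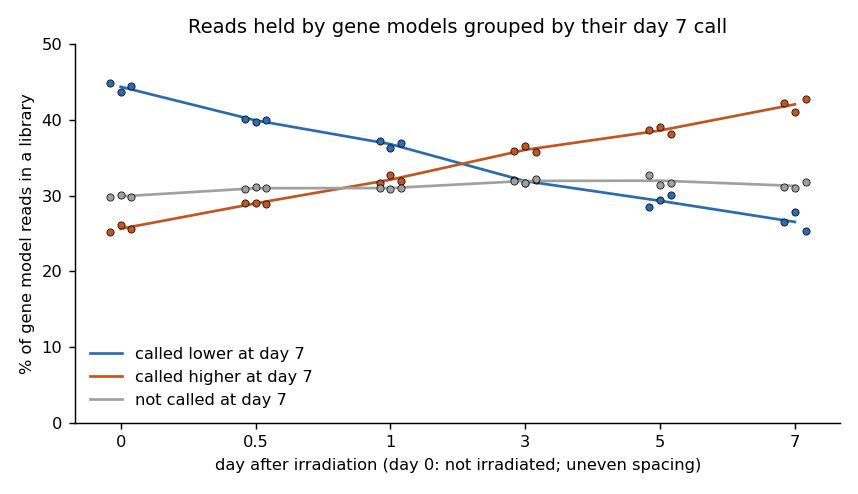
Percentage of a library's reads (vertical axis) held by the gene models called lower, called higher or not called at day 7, in each of the 18 libraries by day (horizontal axis, evenly drawn although the days are not evenly spaced); points are libraries and lines join the means. The falling set goes from 44.3% to 26.5% and the rising set from 25.6% to 42%, with the other days between.

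The fitted changes of the same sets can be set side by side over the days, with the limit that all comparisons share the day 0 libraries and that the sets were picked for their day 7 values. The 1870 gene models at least 2-fold lower at day 7 had median log2 changes of -0.54, -0.77, -1.09, -1.26 and -1.45 over days 0.5, 1, 3, 5 and 7. The 561 that were at least 2-fold higher had medians of 0.36, 0.36, 0.5, 0.71 and 1.24 in the same order. Over all tested gene models the medians lay between -0.01 and 0.02. From day 5 to day 7 the median moved by -0.2 in the falling set and by 0.53 in the rising set. Without day 7 replicate 3, with 1769 and 473 gene models in the sets, it moved by -0.23 and 0.51. Tested directly, 445 gene models (2.6%) differed between the libraries of days 5 and 7 (edgeR quasi-likelihood test, adjusted p below 0.05). The count was 272 without day 7 replicate 3, 280 without day 5 replicate 1, 289 without day 5 replicate 2 and 276 without day 5 replicate 3. In reads, which need no fit, the 561 held 1.94% ± 0.072, 3.38% ± 0.19 and 4.42% ± 0.18 of a library on days 0, 5 and 7 (SD over 3 libraries), and the 1870 held 17.5% ± 0.63, 7.36% ± 0.025 and 6.22% ± 0.5.

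A small number of gene models carried much of the shift in reads. Summed over the falls, the mean share lost was 17.8 percentage points, of which 84 gene models held 50%. Summed over the rises, 16.4 points were gained, and 87 gene models held 50% of that. The 100 gene models with the largest changes in share held 54.7% of the loss and 53% of the gain. Reads are unevenly spread in any library: at day 0 the 100 most abundant gene models held 38.9% to 40.7% of all reads. Whether the shift was more concentrated than the reads themselves was not tested. The loss was led by a single abundant gene model, which alone made up 7.44% of it. The largest single gain was 2.09% of the total gain. With day 7 replicate 3 left out, 86 and 79 gene models held 50% of the loss and of the gain, and the leading shares were 7.2% and 2.14%.

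That most abundant loss was DjGI017786-001, whose product the files do not name. It stood at 54030, 53398 and 59593 CPM in the day 0 libraries and at 41170, 45146 and 33466 CPM at day 7. The groups did not overlap, which was a condition for naming it, as was the call. Replicate 3 was the lowest of day 7. Its log2 change was -0.48 ± 0.11 (SE; edgeR adjusted p = 0.000976), a 1.39-fold fall, and -0.37 without replicate 3. It went from 5.42% to 4.1% of all gene model reads. Its day 0.5 level was 54818 ± 7250 CPM (SD over 3 libraries; log2 change of -0.02, not called), and by day 1 it had come to 41773 ± 2340 CPM. The libraries of day 7 overlapped with those of days 1, 3 and 5.

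DjGI012450-001 had the largest fall among called gene models whose groups did not overlap, whose first number belongs to no other ID, and which held at least 20 CPM at day 0 and at least 10 counts in each of the 6 libraries. It held 802, 806 and 926 CPM in the day 0 libraries and 18.7, 14.3 and 18.2 CPM in the day 7 libraries, from 99, 67 and 125 counts. Its log2 change was -5.62 ± 0.15 (SE; edgeR adjusted p = 1.23e-21), a 49.2-fold fall, and it was -5.67 without day 7 replicate 3. The fall had an abrupt course. Levels of 863 ± 93.1 and 792 ± 11.1 CPM on days 0.5 and 1, neither of them called, were followed by 36.2 ± 8.6 and 18 ± 0.678 CPM on days 3 and 5 (SD over 3 libraries). Its day 5 and day 7 libraries overlapped.

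Among called gene models whose groups did not overlap and whose first number belongs to no other ID, DjGI017681-001 gained the most in CPM. Its level was 3109, 3070 and 3555 CPM at day 0 and 6842, 6604 and 5782 CPM at day 7, with all day 7 libraries above all others of the series. Its log2 change was 0.98 ± 0.09 (SE; edgeR adjusted p = 4.32e-10), a 1.98-fold rise, and 1.05 without day 7 replicate 3. Between these ends it lay at 3842 to 4446 CPM on day 1, at 4208 to 4723 CPM on day 3 and at 4543 to 4832 CPM on day 5.

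DjGI012469-001, much scarcer in reads, had the largest rise in ratio under the same conditions, with the 20 CPM asked for at day 7. Without the condition on first numbers, 2 gene models rose further. It stood at 7.68, 6.59 and 7.58 CPM at day 0 and at 30.4, 25.6 and 21.5 CPM at day 7, from 161, 120 and 148 counts. Its log2 change was 1.82 ± 0.17 (SE; edgeR adjusted p = 1.35e-09), a 3.54-fold rise, and 1.95 without replicate 3. On day 0.5 it was not called, with 8.19 ± 1.33 CPM, and on days 1, 3 and 5 its level was 14.7 ± 2.09, 15.9 ± 1.29 and 14 ± 3.05 CPM (SD over 3 libraries). Its day 7 libraries lay above all libraries of the other days. The largest of the 1176 eligible rises was thus far smaller in ratio than the largest of the 1347 eligible falls.

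**Figure D5:**
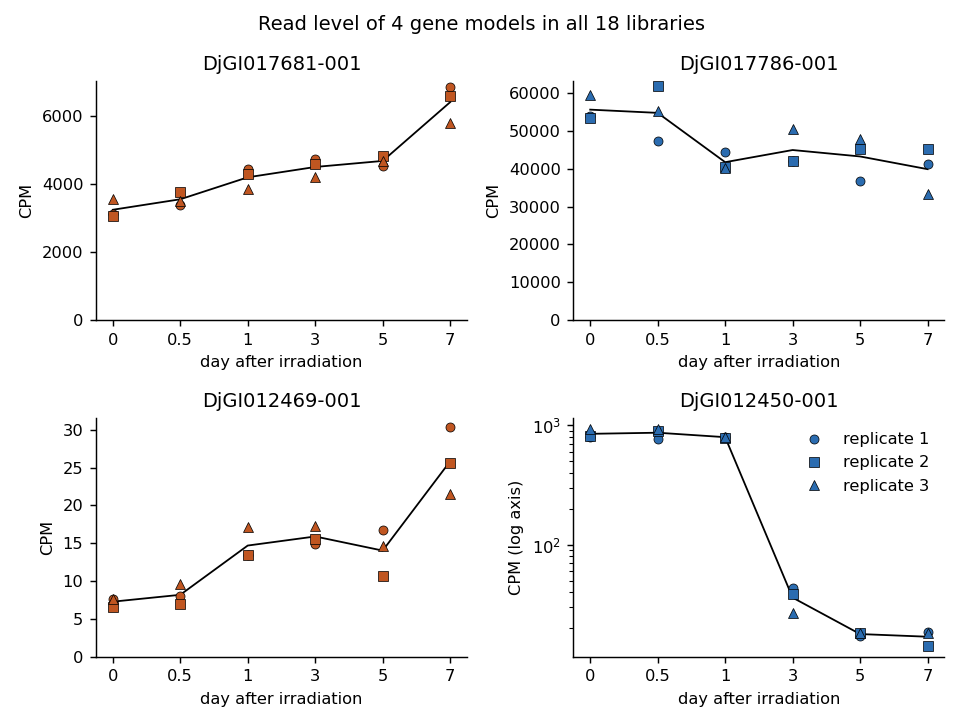
Read level (CPM, vertical axis; log axis in the last panel) of 4 gene models in all 18 libraries by day after irradiation (horizontal axis, evenly drawn); symbols mark the replicates and lines join the means. DjGI017681-001 and DjGI012469-001 are highest at day 7, DjGI017786-001 is lower from day 1 on, and DjGI012450-001 holds its level to day 1 and is at 36.2 CPM at day 3.

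Some gene models could no longer be found at day 7. At the deposited depth, 21 gene models had at least 10 counts in each day 0 library and 0 in all 3 day 7 libraries. Their day 0 levels ran from 1.25 to 10.1 CPM over the group, here without TMM scaling, with a median of 2.53. A count of 0 over the day 7 group allows a level of up to 0.185 CPM (3 counts in the group, for counting error only). Against that level, the 21 were at least 6.76-fold to at least 54.6-fold lower. These bounds leave out counting error at day 0 and the choice of gene models for their 0 counts. Of the 21, 19 were called lower. The mirror case, 0 in all day 0 libraries and at least 10 counts in each day 7 library, was not seen in any gene model. The day 0 libraries are deeper, so the count was repeated with all libraries thinned to equal depth, where 10 gene models were lost and again none appeared. That asymmetry depended on the minimum asked for in each library of the other group: at equal depth, 20 were lost and 1 appeared with at least 5 counts, and 106 were lost and 80 appeared with at least 1. Without day 7 replicate 3, the numbers at deposited depth were 42 and 0, without day 7 replicate 1 they were 33 and 0, and without day 7 replicate 2 they were 30 and 0. Leaving out a day 7 library loosens the condition, so these numbers could not fall and are no test of the count.

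Of the 1992 first numbers with at least 2 tested IDs, 277 had all their tested IDs lower and 206 had all of them higher. In a further 543, some IDs were called, in a single direction, and 950 had none called. The numbers without day 7 replicate 3 were 238, 167, 482 and 1135, of 2032 first numbers. Such IDs may be copies so alike that the counting split reads among them, so their agreement is not independent. Calls in opposite directions were found under 16 first numbers, which hold 90 tested IDs. The gap between the highest rise and the deepest fall under these first numbers had a median of 1.69 on the log2 scale and ran from 0.84 to 8.05, and in 1 of the 16 both directions reached 2-fold. The count was 10 without day 7 replicate 3, also 10 without day 7 replicate 1, and 8 without day 0 replicate 3. Of IDs tested alone under their first number 44.3% were called, and of the others 36.3%, against 41.6% over all.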

How the data were processed

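The 18 whole-body libraries, counted by 3' sequencing, come from 6 sampling days with 3 replicates each, which the series describes as biological. The deposited count table holds estimated counts for each gene model, without normalization by the authors. Tools named in the submitters' processing notes, whose roles are not stated, are Salmon, BWA (0.7.17-r1188) and fastp (0.21.0). For the reference and the gene models, nothing is given in the sources used here. A second deposited table, per the file headers, gives total counts, rows above 0 and the sampling day, which matched the labels for all 18 libraries.

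ERCC rows (92, with 0.004% of the counts) entered neither library sizes nor tests, and 38 values that were not whole were rounded. Gene models were filtered with edgeR's default by group (minimum count 10, minimum total 15) and scaled with TMM, a trimmed mean of the ratios between libraries. All 18 libraries entered 1 fit with edgeR 4.0.16 in R 4.3.3 (quasi-likelihood, 1 mean per day). All p-values are two-sided. Those of the edgeR tests were adjusted by Benjamini-Hochberg over all gene models tested, with a threshold of 0.05. The exact permutation p-values were not adjusted. The SE is the log2 change divided by the square root of F, an approximation, and intervals are at 95%. On the 6 libraries alone, 15845 gene models passed the filter. The fit was tested on simulated data with the same spread at every day. In these, 100 gene models were changed 1.5-fold and 100 were changed 3-fold, all with enough reads. Of the 1.5-fold changes 48% were called, and of the 3-fold changes 99%, while 4.55% of all calls were false. The real day 7 libraries were more variable and gave far more calls, so these rates may not hold for them. Alternatives included DESeq2 1.42.0.

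The 4 named IDs were called, did not overlap between the groups and have a first number carried by no other ID; they are those with the largest gain and loss in mean CPM, and with the largest log2 rise and fall given at least 20 CPM in the higher group and at least 10 counts in each of the 6 libraries. The members, sets and alternatives were chosen with earlier results of these data known.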

Additional observations from a re-analysis of the deposited data

Results flagged for a closer look

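Among the 4 named gene models, both that rose were also picked out by the step from day 5 to day 7. They had been chosen for their day 7 levels, so the step is a description here and no test is given for it. DjGI017681-001 gained 0.45 ± 0.09 in log2 terms over this step (SE), and was higher in 3 of 3 day 7 libraries than in any day 5 library. DjGI012469-001 gained 0.86 ± 0.17 (SE), also in 3 of 3. Over all 17129 gene models, 445 (2.6%) differed between days 5 and 7, with 168 higher and 277 lower at day 7. Leaving out a library of either day, an alternative added after seeing the data, gave 272 to 443. More were lower than higher in each of these fits, but only narrowly without day 7 replicate 3, with 141 lower and 131 higher.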

How the results depend on the processing

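No gene model called at day 7 was called in the opposite direction under any of the 18 settings fitted on single IDs. All settings share most or all of the 6 libraries compared, so opposite calls were unlikely from the start and this is no independent test. Of the 3968 falls and 3157 rises, 3329 (83.9%) and 2519 (79.8%) kept their call under all 4 other scalings (RLE, upper quartile, library totals, ERCC controls), and 2960 (74.6%) and 1808 (57.3%) did so in all 6 fits that leave out a library. RLE, upper-quartile scaling and library totals each kept all 3157 rises, and ERCC scaling, which rests on few counts, kept 2519. Upper-quartile scaling put the median change over everything tested at 0.12 in log2 and library totals put it at 0.1, against 0.02, and falls then made up 46.2% and 48% of the calls. A test against a 1.5-fold change gave 2245 calls, 1758 lower and 487 higher, since it asks for more than a difference from 0. At least 2-fold rises numbered 353 with at least 30 reads in 3 libraries, where 13992 gene models were tested. With all libraries thinned to equal depth, 15561 gene models were tested and 5506 were called, 3138 lower and 2368 higher. Of the falls and rises of the main fit, 77.6% and 70.2% kept their call there. Leaving out a library gave 6063 to 6656 calls, 3504 to 3849 falls and 2559 to 2906 rises, with 1741 to 1939 falls and 467 to 649 rises of at least 2-fold. The number of first numbers with opposite calls ranged from 8 to 14 in these fits, and the cause was not tested. The day 7 mean of total counts ranged from 44.6% to 55.7% of the day 0 mean.

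The replicate block gave 7049 calls (3946 lower, 3103 higher). Deviations of same-numbered libraries of days 0 and 7 correlated at 0.02, -0.02 and -0.04, and the labels do not tie the numbers to a shared source, so the block is not read as a pairing. DjGI017681-001, DjGI012469-001 and DjGI012450-001 kept their direction and call in the 16 alternatives read out for them. DjGI017786-001 did so in 15, as it was removed with the 10 most abundant gene models. Other alternatives, among them ERCC scaling and the test against a 1.5-fold change, were not read out for these IDs. The fall of DjGI017786-001, 1.39-fold, lies below the limit of that test. Depth limits the lowest read-level class most, where the median SE was 0.47.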

Other observations

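The 10 most abundant gene models of each library took 19.8%, 19.9% and 21% of the reads at day 0 and 18.9%, 18.9% and 18% at day 7, without overlap (exact two-sided permutation test, p = 0.1, the smallest value possible). The 100 most abundant took 39.5%, 38.9% and 40.7% at day 0 and 42.5%, 41.8% and 40.1% at day 7, where the groups overlapped (exact permutation p = 0.2). The 1000 most abundant took a mean of 73.3% and 73.4% (exact permutation p = 1). In this family 7 library quantities were compared, and none can pass a threshold of 0.05 with 3 against 3 libraries.

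Day 7 replicate 3 was the lowest of the day 7 libraries for 50.1% of the falls and the highest for 40.3% of the rises, against 26.3% and 33.5% for replicate 1 and 23.6% and 26.2% for replicate 2.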
